A study of Mus musculus with 24 samples.

Results

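The genes of 6 cyclin-dependent kinase (CDK) inhibitors other than p21, together with Rb1, the gene of the retinoblastoma protein (RB), were followed in alveolar epithelial cells (AECs) of the mouse. The inhibitors were Cdkn2a (p16INK4a and p19ARF), Cdkn2b (p15INK4b), Cdkn2c (p18INK4c), Cdkn2d (p19INK4d), Cdkn1b (p27) and Cdkn1c (p57). They were taken by name and not by a cutoff on measured values, although earlier results of these data were known. All 7 genes were found among the 55421 mouse gene entries of the deposited count table. RNA was sequenced from alveolar type 2 cells (AEC2s), the surfactant-producing progenitors of the alveolus, when freshly isolated (day 0) and after 1, 3, or 7 days in 2D culture, a setting used to follow AEC2s as they pass through a transitional state. The cells came from Krt8+/+ (WT) mice and from Krt8-/- (KO) mice, which lack keratin 8 in the whole body and not in AECs alone. Each of the 8 groups of genotype and day held 3 libraries, numbered by the labels as biological replicates 1 to 3. Each replicate number also stands for 1 batch and 1 date in the labels, shared by both genotypes and all days. The study cultured the cells on a stiff substrate coated with laminin, and neither the age of the mice nor how many stood behind a library is stated in the labels or methods read here. One question of the study was whether loss of keratin 8 alters the cell-cycle arrest and senescence genes of cultured AECs.

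CDK inhibitors hold cells out of division. The INK4 proteins (p15, p16, p18, and p19INK4d) bind CDK4 and CDK6 and keep them from their D-type cyclins, whereas the CIP/KIP proteins (p21, p27, and p57) act on a wider range of cyclin-CDK complexes, chiefly those of CDK2. With the kinases held back, RB stays unphosphorylated and bound to E2F factors, and the E2F target genes of DNA replication stay off. p15 and p16 are widely used as markers of senescence, and p19ARF, read from the same gene as p16 in another frame, stabilizes p53 by binding MDM2.

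Cdkn2a and Cdkn2b lie next to each other on the minus strand of chromosome 4, and 11645 bases separate the annotated gene bodies (GENCODE M21, GRCm38). Cdkn2b was the tested member that rose most in culture, while Cdkn2a, its neighbor, had no count on day 0, so the RefSeq sequences around their start sites (GRCm38.p6, 250 bases before to 50 bases after the start, printed along the minus strand) are shown for comparison. Capitals mark matches, in either orientation, to 7 short motifs that were searched. These were the GC box (spelled GGGCGG), the cyclic AMP response element or CRE (spelled TGACGTCA), the AP-1 site (spelled TGACTCA), the E2F site (spelled TTTGGCGC), the box named CCAAT after its letters, the TATA box (spelled TATAAA), and the E-box (spelled CACGTG).
Cdkn2b, chr4:89310983-89311282: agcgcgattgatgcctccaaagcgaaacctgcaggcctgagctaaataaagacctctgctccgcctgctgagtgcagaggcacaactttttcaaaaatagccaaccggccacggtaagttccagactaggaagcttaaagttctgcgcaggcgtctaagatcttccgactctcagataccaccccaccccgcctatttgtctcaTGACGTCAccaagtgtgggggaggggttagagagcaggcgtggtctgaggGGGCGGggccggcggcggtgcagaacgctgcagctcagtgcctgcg
Cdkn2a, ARF start, chr4:89294570-89294869: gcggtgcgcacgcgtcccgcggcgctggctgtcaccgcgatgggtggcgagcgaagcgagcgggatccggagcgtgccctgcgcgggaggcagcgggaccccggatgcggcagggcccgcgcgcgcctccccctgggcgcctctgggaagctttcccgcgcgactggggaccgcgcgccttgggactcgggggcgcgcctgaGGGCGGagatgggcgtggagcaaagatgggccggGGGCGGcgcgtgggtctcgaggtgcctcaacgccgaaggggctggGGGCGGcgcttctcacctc
Cdkn2a, p16 start, chr4:89282143-89282442: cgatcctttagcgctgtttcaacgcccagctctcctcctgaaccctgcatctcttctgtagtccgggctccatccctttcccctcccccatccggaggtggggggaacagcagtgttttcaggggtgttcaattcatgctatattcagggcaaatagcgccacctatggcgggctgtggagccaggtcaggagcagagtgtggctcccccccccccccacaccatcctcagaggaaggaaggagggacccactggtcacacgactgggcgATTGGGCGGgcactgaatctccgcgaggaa
The Cdkn2b window held a CRE 46 bases before the start, a motif present in 1.79% of the 32851 promoter windows of the table, and a GC box 4 bases after it. The ARF window held 3 GC boxes, and the p16 window held a CCAAT match that overlaps a GC box. A GC box occurred in 35.7% of all windows and CCAAT in 37.4%. AP-1, E2F, TATA box, and E-box letters, found in 5.2%, 0.514%, 13.6%, and 7.15% of all windows, did not occur in these 3. The ARF window was 77.0% GC and the Cdkn2b window 57.7%, against a median of 52.7% over all windows. In all, 5 of the 7 members had a window in the table, and these matches describe the sequence alone.

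Total counts per library ranged from 10184439 to 19483386. Levels are given as CPM, counts scaled to a common library total with edgeR's TMM factors. Krt8, the targeted gene, lay between 485 and 5092 CPM in the Krt8+/+ libraries, whereas the Krt8-/- libraries held 21.2 to 47.4 CPM. The summed level of 6 AEC2 markers fell from between 208063 and 287893 CPM on day 0 to between 147 and 205 CPM on day 7 (n = 6 libraries a day), so the day 7 cells no longer carried the AEC2 profile of the day 0 cells. Xist and Y-linked genes differed between the genotypes in replicate 1 only. There, Krt8+/+ libraries had 62.4 to 79.5 CPM of Xist and at most 0.441 CPM of Y-linked genes, while Krt8-/- libraries had 5.92 to 11.95 CPM of Xist and at least 173 CPM of Y-linked genes, so that genotype cannot be told apart from the sex-linked difference within that replicate.

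The 6 members other than Cdkn2a passed the filter on low counts and were tested among 18046 genes with edgeR's quasi-likelihood test and a Benjamini-Hochberg adjusted p under 0.05 as the threshold. Comparisons of days that have a day in common use the same libraries for it, so their values are given side by side. From day 0 to day 1, Cdkn2b rose and Cdkn1b and Cdkn2c fell in Krt8+/+ AECs, that is 1 member higher and 2 lower, where 26.2% of all genes tested were called higher and 28.5% lower. Among Krt8-/- AECs, 1 member rose and 3 fell, with Cdkn2d the additional call, where the shares of all genes were 23.7% and 26.9%. From day 1 to day 3, Cdkn2b and Cdkn2c rose and Cdkn1c fell in Krt8+/+ AECs (14.4% of all genes higher and 11.9% lower), and Cdkn2b and Cdkn2c rose in Krt8-/- AECs (13.4% higher and 10.2% lower). From day 3 to day 7, edgeR called 0 members in Krt8+/+ AECs (3.11% of all genes higher and 3.47% lower), and the DESeq2 test called 0 as well. In edgeR 3 of the 6 members had an unadjusted p under 0.05, as had 3468 of the 18046 genes. Over the same days 1 member, Cdkn1c, fell in Krt8-/- AECs, where 4.4% of all genes were called higher and 6.15% lower. Between day 0 and day 7 the same 3 members were called in both genotypes, with Cdkn2b higher and Cdkn1b and Cdkn1c lower. The shares of all genes were 28.6% higher and 30.2% lower in Krt8+/+ AECs and 28.6% higher and 29.9% lower in Krt8-/- AECs. Over these 7 days 10611 and 10558 of the 18046 genes were called, so that 3 of 6 members called is no larger a share than that of genes at large. The counts of day 7 against day 0 stayed at 3 without any single replicate. For 4 other comparisons the count moved by more than 1.5 times when 1 replicate was left out. It was 1 without replicate 1 or replicate 3 for day 3 against day 1 in Krt8+/+ AECs, 2 without replicate 1 for day 1 against day 0 in Krt8-/- AECs, 0 without replicate 1 and 1 without replicate 2 or replicate 3 for day 3 against day 1 in Krt8-/- AECs, and 0 without replicate 1 or replicate 3 for day 7 against day 3 in Krt8-/- AECs. Calls over all genes fell in these edgeR fits too. The first comparison had 3085 and 2620 calls without replicates 1 and 3, against 4740 with all libraries. The second had 7098 without replicate 1, against 9131. The third had 1842, 2691, and 2040 without replicates 1, 2, and 3, against 4252. The fourth had 834 and 937 without replicates 1 and 3, against 1903.

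**Figure D1:**
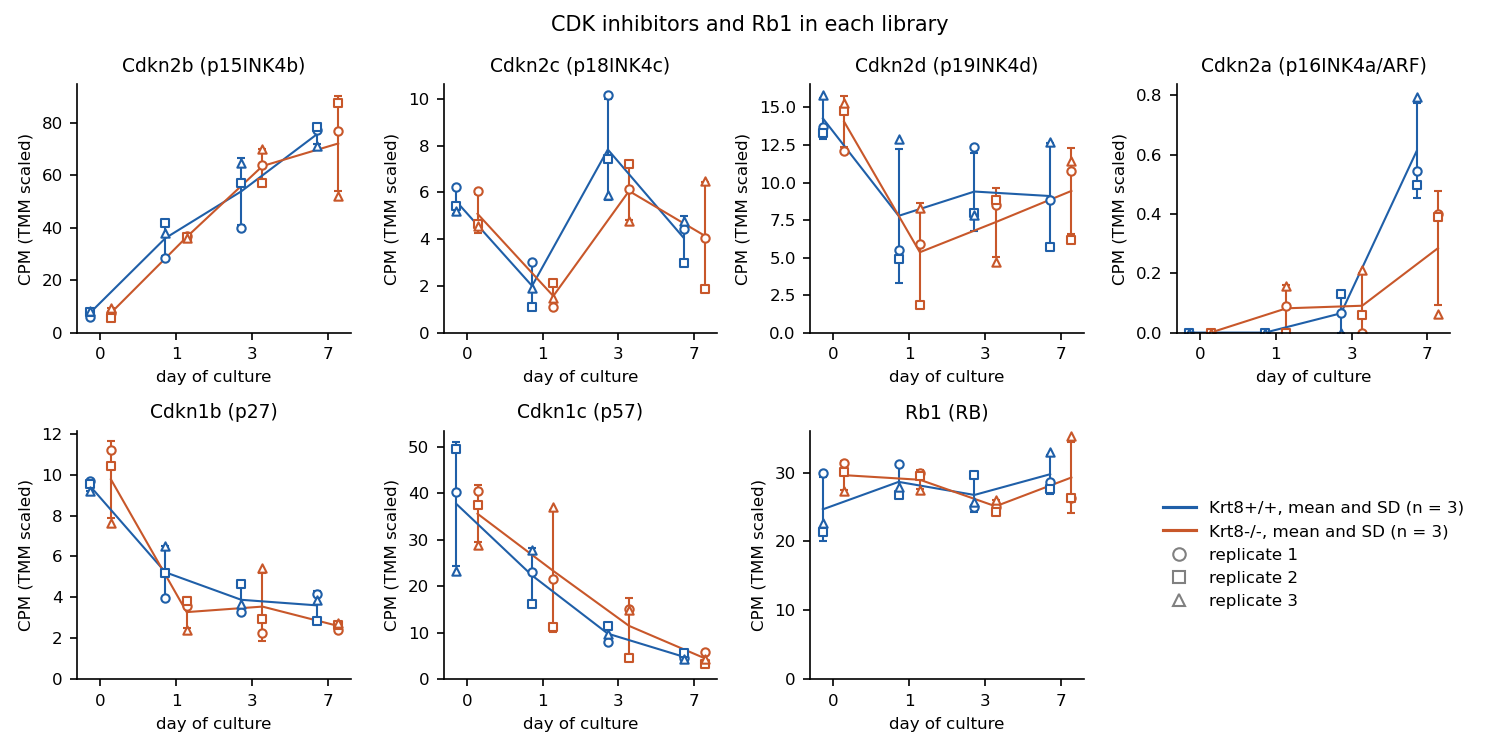
Level of each member in every library, in CPM on linear axes that start at 0, against the day of culture (days evenly spaced). Lines join group means with SD (n = 3), symbols mark the replicate, and Krt8+/+ is blue and Krt8-/- orange. Cdkn2b climbed from below 10 CPM to between 51.9 and 87.4 CPM on day 7, Cdkn1c and Cdkn1b declined, Cdkn2c dipped on day 1 and was higher again on day 3, and Rb1 stayed between 21.3 and 35.3 CPM.

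Cdkn2b (ENSMUSG00000073802, chromosome 4, 89306299 to 89311039, minus strand) encodes p15INK4b, an inhibitor of CDK4 and CDK6 and a classical target of TGF-β signaling. It rose more than any other tested member, about 5-fold on day 1 and about 10-fold on day 7. In Krt8+/+ AECs, replicates 1, 2, and 3 had 5.98, 8.02, and 8.19 CPM on day 0, 28.6, 41.6, and 38.0 CPM on day 1, 39.7, 56.96, and 64.8 CPM on day 3, and 77.1, 78.5, and 71.3 CPM on day 7. Krt8-/- AECs of the same replicates had 7.41, 5.67, and 9.43 CPM, then 37.0, 36.4, and 36.0 CPM, then 63.8, 56.9, and 69.9 CPM, and finally 77.0, 87.4, and 51.9 CPM. Every cultured library of either genotype was higher than every day 0 library, and in Krt8+/+ AECs the day 1 and day 3 values overlapped. The log2 change from day 0 to day 1 was 2.29 ± 0.22 (SE) in Krt8+/+ AECs (4.91-fold, edgeR adjusted p = 5.68e-08) and 2.27 ± 0.22 in Krt8-/- AECs (4.83-fold, edgeR adjusted p = 6.55e-08). From day 1 to day 3 it rose further, by 0.58 ± 0.21 in Krt8+/+ AECs (edgeR adjusted p = 0.0422) and by 0.80 ± 0.21 in Krt8-/- AECs (edgeR adjusted p = 0.00779), with a higher value in each of the 3 replicates. These later calls were near the threshold. In Krt8+/+ AECs the adjusted p was 0.0657 with DESeq2's size factors in edgeR, 0.0511 in the DESeq2 test, 0.139 in an edgeR fit of the 6 libraries alone, and 0.108, 0.139, and 0.187 in edgeR without replicates 1, 2, and 3, and in Krt8-/- AECs it was 0.0586, 0.0553, and 0.0597 without them. From day 3 to day 7 the log2 change was 0.49 ± 0.20 in Krt8+/+ AECs (edgeR adjusted p = 0.178) and 0.18 ± 0.20 in Krt8-/- AECs (edgeR adjusted p = 0.661), which did not pass. Over all 7 days the change was 3.36 ± 0.23 in Krt8+/+ AECs (10.3-fold, edgeR adjusted p = 2.75e-10) and 3.26 ± 0.23 in Krt8-/- AECs (9.55-fold, edgeR adjusted p = 3.55e-10). In RNA from many cells, as here, a larger number of cells with a transcript and more transcript per cell cannot be told apart.

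Cdkn2c (ENSMUSG00000028551, chromosome 4, 109660876 to 109667189, minus strand) encodes p18INK4c, an INK4 inhibitor that is itself produced in dividing cells. It fell about 3-fold on day 1 and was about 4-fold higher on day 3 than on day 1. In Krt8+/+ AECs the replicates had 6.23, 5.42, and 5.20 CPM on day 0, 3.01, 1.09, and 1.90 CPM on day 1, 10.2, 7.45, and 5.90 CPM on day 3, and 4.42, 2.99, and 4.77 CPM on day 7. Krt8-/- AECs had 6.04, 4.66, and 4.56 CPM, then 1.08, 2.14, and 1.48 CPM, then 6.17, 7.23, and 4.79 CPM, and finally 4.06, 1.87, and 6.51 CPM. The day 1 values lay below those of day 0 and of day 3 in both genotypes without overlap. The log2 change from day 0 to day 1 was -1.48 ± 0.40 in Krt8+/+ AECs (edgeR adjusted p = 0.00422) and -1.68 ± 0.41 in Krt8-/- AECs (edgeR adjusted p = 0.00196). From day 1 to day 3 it was 1.96 ± 0.40 in Krt8+/+ AECs (3.89-fold, edgeR adjusted p = 0.00133) and 1.94 ± 0.41 in Krt8-/- AECs (3.83-fold, edgeR adjusted p = 0.00189). Without replicate 1 both Krt8-/- changes missed the threshold, at -1.34 (edgeR adjusted p = 0.067) and 1.72 (edgeR adjusted p = 0.0606), while the Krt8+/+ changes passed without any single replicate. Day 7 did not differ from day 0 beyond the threshold, with a log2 change of -0.47 ± 0.39 in Krt8+/+ AECs (95% interval -1.29 to 0.36) and -0.29 ± 0.39 in Krt8-/- AECs (95% interval -1.11 to 0.53).

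Cdkn2d (ENSMUSG00000096472, chromosome 9, 21288410 to 21291407, minus strand) encodes p19INK4d, a protein distinct from p19ARF. Its values on day 1 lay below those of day 0 in both genotypes, and the change passed the threshold in Krt8-/- AECs. In Krt8+/+ AECs the replicates had 13.7, 13.3, and 15.8 CPM on day 0 and 5.51, 4.93, and 12.9 CPM on day 1, and in Krt8-/- AECs they had 12.1, 14.8, and 15.3 CPM and then 5.92, 1.82, and 8.33 CPM. On days 3 and 7 it ranged from 5.72 to 12.7 CPM in the Krt8+/+ libraries, with 4.72 to 11.4 CPM in those of Krt8-/- mice. The log2 change from day 0 to day 1 was -1.40 ± 0.45 in Krt8-/- AECs (edgeR adjusted p = 0.0129) and -0.87 ± 0.44 in Krt8+/+ AECs (edgeR adjusted p = 0.0985, 95% interval -1.80 to 0.06). The Krt8-/- change was -1.58 without replicate 1 (edgeR adjusted p = 0.0711) and -0.85 without replicate 2 (edgeR adjusted p = 0.151). With replicate number as a block (replicate block), the Krt8+/+ change also passed (-0.94, edgeR adjusted p = 0.0484), as it did without replicate 3 (-1.37, edgeR adjusted p = 0.0285). The genotype difference in this step was not tested on its own, and the joint edgeR test of genotype by day over all 4 days had an unadjusted p of 0.742 for Cdkn2d.

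Cdkn2a (ENSMUSG00000044303, chromosome 4, 89274471 to 89294653, minus strand) was the lowest member in every group and the only one below the filter. The 6 libraries of day 0 held no count, those of day 1 held 3 in all, those of day 3 held 7, and those of day 7 held 39. On day 7 the Krt8+/+ libraries held 8, 6, and 12 counts in replicates 1, 2, and 3 (0.545, 0.498, and 0.795 CPM), and the Krt8-/- libraries held 7, 5, and 1 (0.400, 0.389, and 0.0638 CPM). All 6 libraries of day 7 thus had at least 1 count. The difference between day 7 and day 0 was 0.448 CPM (two-sided exact permutation test of 6 against 6 libraries, p = 0.0021645, the smallest that its 924 arrangements allow). With libraries paired by genotype and replicate number (replicate block), the exact sign-flip p was 0.03125, also the smallest possible. A count of 0 on day 0 allows up to 3 counts over the 6 libraries, or 0.0424 CPM, which covers counting error only. The measured day 7 level was 10.46 times this limit. Taken by genotype, it was 7.04 times the limit in Krt8+/+ AECs (26 counts) and 3.46 times in Krt8-/- AECs (13 counts), where the limit of 3 counts was taken over the 3 libraries of day 0. These ratios leave out the counting error of day 7, so they are not lower bounds. With no filter on low counts, edgeR called Cdkn2a higher on day 7 than on day 0 in both genotypes (edgeR adjusted p = 0.00942 and 0.0337). In all, 5 of the Krt8+/+ libraries held 29 counts and 7 of the Krt8-/- libraries held 20, a difference of -0.0552 CPM between the genotypes (exact sign-flip permutation test over 12 pairs, p = 0.578). The 12 pairs include every day of each replicate number, and the test flips these days separately although they share a batch and date. In 4 of these pairs both libraries were at 0. On day 7, the day with most counts, the Krt8-/- library was lower in each of the 3 pairs (13 against 26 counts in all, with 1 against 12 in replicate 3). These 3 pairs are too few for an exact test to reach 0.05.

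The counts of Cdkn2a do not separate its products. Of the 852 bases of the p16 transcript (Cdkn2a-201) and the 895 bases of the ARF transcript (Cdkn2a-202), 575 are shared, which is 67.5% and 64.2% of them. Exon 2 of both spans 89276645 to 89276985, whereas the first exons, 89281986 to 89282192 for p16 and 89294334 to 89294653 for ARF, are separate. Cdkn2a and Cdkn2b encode related proteins, but no stretch of 50 bases in any member's transcripts occurred in another gene, and the longest stretch shared by Cdkn2a-201 and the Cdkn2b transcript was 23 bases.

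Cdkn1c (ENSMUSG00000037664, chromosome 7, 143458339 to 143461050, minus strand) encodes p57, a CIP/KIP inhibitor of an imprinted region that is best known from quiescent and differentiating cells. It fell about 8-fold over the 7 days in both genotypes. On the log2 scale the larger part of its fall came after day 1, whereas the larger part of the Cdkn2b rise came before day 1. Its Krt8+/+ values in replicates 1, 2, and 3 were 40.2, 49.6, and 23.4 CPM on day 0, 23.1, 16.1, and 27.8 CPM on day 1, 8.07, 11.5, and 9.76 CPM on day 3, and 4.49, 5.64, and 4.31 CPM on day 7. The Krt8-/- values were 40.6, 37.5, and 28.8 CPM, then 21.6, 11.2, and 37.1 CPM, then 15.1, 4.52, and 14.8 CPM, and finally 5.89, 3.19, and 4.34 CPM. Day 0 and day 1 overlapped in both genotypes, since replicate 3 was higher on day 1 than on day 0, while day 0 and day 7 were far apart. From day 0 to day 7 the log2 change was -2.97 ± 0.44 in Krt8+/+ AECs (edgeR adjusted p = 7.06e-06) and -2.98 ± 0.44 in Krt8-/- AECs (edgeR adjusted p = 6.63e-06). Of the steps between, the fall from day 1 to day 3 passed in Krt8+/+ AECs (-1.19 ± 0.41, edgeR adjusted p = 0.0364) and that from day 3 to day 7 in Krt8-/- AECs (-1.34 ± 0.42, edgeR adjusted p = 0.0466). Both steps missed the threshold without replicate 1 (edgeR adjusted p = 0.235 and 0.296) or replicate 3 (edgeR adjusted p = 0.182 and 0.288). The other step of each genotype had a similar size, -1.03 ± 0.42 from day 3 to day 7 in Krt8+/+ AECs (edgeR adjusted p = 0.175) and -1.02 ± 0.41 from day 1 to day 3 in Krt8-/- AECs (edgeR adjusted p = 0.0735). The first passed in edgeR with only the 6 libraries (adjusted p = 0.0333), and the second in the DESeq2 test (adjusted p = 0.0376) and in edgeR with no filter (adjusted p = 0.0498). Gm44732, annotated on the opposite strand within Cdkn1c, had 7 counts over all libraries.

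Cdkn1b (ENSMUSG00000003031, chromosome 6, 134920401 to 134925513, plus strand) encodes p27, the CIP/KIP inhibitor that restrains CDK2 in resting cells and is degraded through SKP2 as cells enter S phase. Its transcript fell on day 1 and remained low. In Krt8+/+ AECs it was 9.66, 9.53, and 9.19 CPM on day 0, 3.97, 5.18, and 6.52 CPM on day 1, 3.28, 4.67, and 3.69 CPM on day 3, and 4.15, 2.82, and 3.84 CPM on day 7. The Krt8-/- libraries had 11.2, 10.4, and 7.65 CPM, then 3.59, 3.83, and 2.41 CPM, then 2.26, 2.95, and 5.42 CPM, and finally 2.40, 2.65, and 2.74 CPM. Each day 0 library of a genotype was higher than each of its cultured libraries, and the values of days 1 to 7 overlapped in Krt8+/+ AECs. The log2 change from day 0 to day 1 was -0.86 ± 0.30 in Krt8+/+ AECs (edgeR adjusted p = 0.0188) and -1.57 ± 0.30 in Krt8-/- AECs (edgeR adjusted p = 0.000217). The Krt8+/+ change missed the threshold in edgeR without replicate 1 (-0.68, adjusted p = 0.163), without replicate 2 (-0.76, adjusted p = 0.179), in a fit of the 6 libraries alone (-0.75, adjusted p = 0.0831), and with no filter on low counts (-0.85, adjusted p = 0.0631). From day 0 to day 7 the change was -1.39 ± 0.30 in Krt8+/+ AECs (edgeR adjusted p = 0.000483) and -1.91 ± 0.31 in Krt8-/- AECs (edgeR adjusted p = 1.9e-05).

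Rb1 (ENSMUSG00000022105, chromosome 14, 73183673 to 73325822, minus strand) encodes RB, the protein through which the INK4 inhibitors act. No change of Rb1 was called in any comparison. The lowest, median, and highest of its 3 Krt8+/+ values were 21.3, 22.7, and 29.9 CPM on day 0 and 27.6, 28.7, and 33.0 CPM on day 7, and those of its Krt8-/- values were 27.3, 30.1, and 31.4 CPM on day 0 and 26.2, 26.3, and 35.3 CPM on day 7. Between day 0 and day 7 the log2 change was 0.27 ± 0.15 in Krt8+/+ AECs (95% interval -0.04 to 0.58) and -0.02 ± 0.14 in Krt8-/- AECs (95% interval -0.32 to 0.29). These were the narrowest intervals of the 6 members tested. Rcbtb2 and Lpar6 overlap Rb1 on the opposite strand and had 229 to 695 and 89 to 627 counts per library. Whether the counting used strand is not stated, so reads of these genes and of Rb1 cannot be told apart where they overlap.

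**Figure D2:**
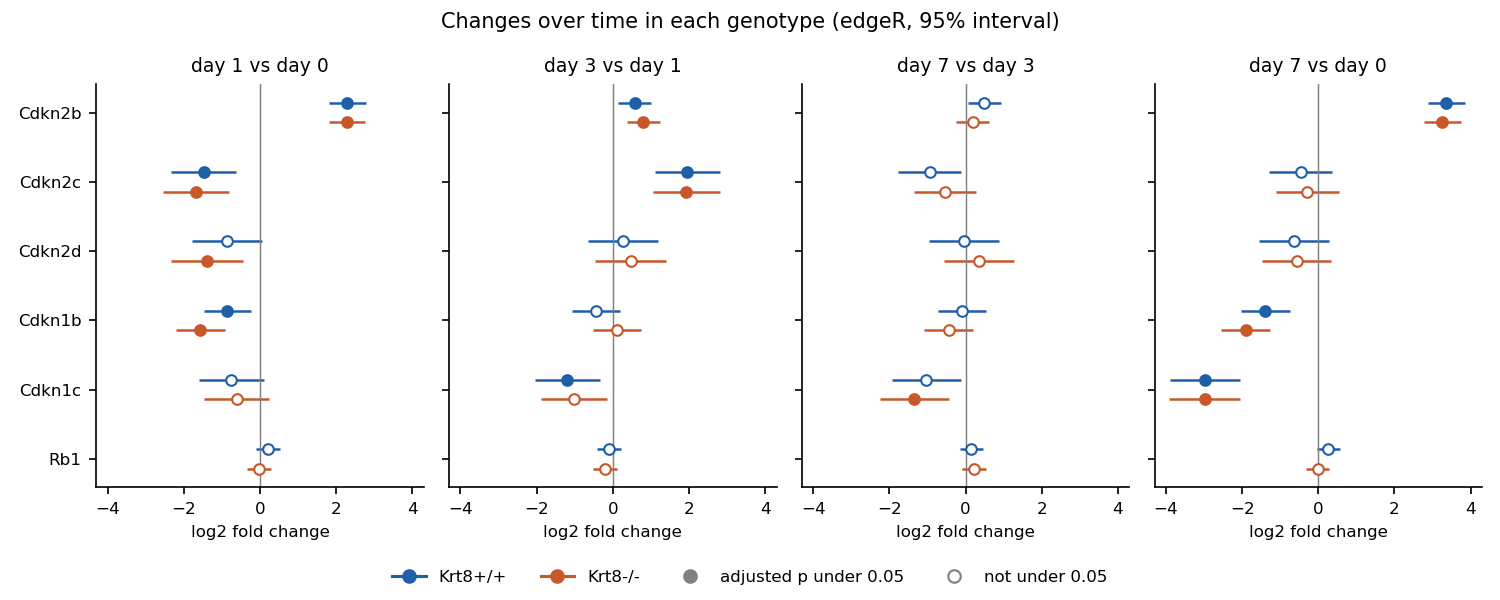
Log2 fold change of the 6 tested members over 4 pairs of days, with 95% intervals from the edgeR fit of all 24 libraries. Blue is Krt8+/+, orange Krt8-/-, and filled points passed an adjusted p under 0.05. Cdkn2b stands at 3.36 and 3.26 for day 7 against day 0, Cdkn1c at -2.97 and -2.98, and Rb1 near 0 in each panel.

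Per length, the make-up of the inhibitors changed. CPM per kb of merged exons was used to set the genes side by side. In Krt8+/+ AECs, Cdkn1c was highest on day 0 at 18.5 ± 6.52 CPM per kb (SD, n = 3), followed by Cdkn2d at 9.07 ± 0.863, Cdkn2b at 5.32 ± 0.886, Rb1 at 4.10 ± 0.770, Cdkn2c at 2.09 ± 0.202, and Cdkn1b at 2.08 ± 0.054. Cdkn2c and Cdkn1b did not differ beyond their spread, nor did Cdkn2b and Rb1. On day 7, Cdkn2b was highest at 54.4 ± 2.75 CPM per kb, followed by Cdkn2d at 5.78 ± 2.23, Rb1 at 4.95 ± 0.476, Cdkn1c at 2.36 ± 0.354, Cdkn2c at 1.51 ± 0.353, Cdkn1b at 0.792 ± 0.153, and Cdkn2a at 0.523 ± 0.137. Cdkn2d and Rb1 did not differ beyond their spread on that day. Cdkn1c was also first on day 0 in Krt8-/- AECs (17.5 ± 2.99 CPM per kb), and Cdkn2b was first on day 7 (51.9 ± 13.1 CPM per kb). The order in the middle changed with the length used, since Cdkn2d and Rb1 changed places on day 1 in Krt8+/+ AECs when the longest coding transcript replaced the merged exons (an alternative chosen after seeing the data), at 0.18 and -0.685 CPM per kb for Cdkn2d minus Rb1, while the first and last gene of each group stayed.

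Of the summed CPM per kb of the 4 INK4 genes, Cdkn2b made up 32.2% ± 3.76 in fresh Krt8+/+ cells (SD, n = 3) and 82.2% ± 7.03, 80.5% ± 8.37, and 87.4% ± 4.34 after 1, 3, and 7 days of culture. For Krt8-/- AECs these shares were 33.0% ± 5.48, 86.9% ± 5.94, 86.6% ± 4.08, and 86.2% ± 6.70. The share of Cdkn1c among the 6 inhibitors went the other way, from 48.9% ± 10.9 (day 0) to 3.61% ± 0.555 (day 7) for Krt8+/+ AECs and from 48.6% ± 6.12 to 3.60% ± 1.18 in Krt8-/- AECs. The day 0 ranges of both shares lay apart from those of day 7. The summed level of the 6 went from 37.1 ± 5.65 to 65.4 ± 0.816 CPM per kb between days 0 and 7 in Krt8+/+ AECs, and from 35.8 ± 1.81 to 62.4 ± 11.0 in Krt8-/- AECs. Beside p21 (Cdkn1a) the 6 were a minor part of the inhibitor RNA in culture. In Krt8+/+ AECs, Cdkn1a made up 28.0% ± 0.815 of the 7 genes when fresh, 89.8% ± 2.51 after 1 day, and 75.3% ± 1.07 after 7 days.

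**Figure D3:**
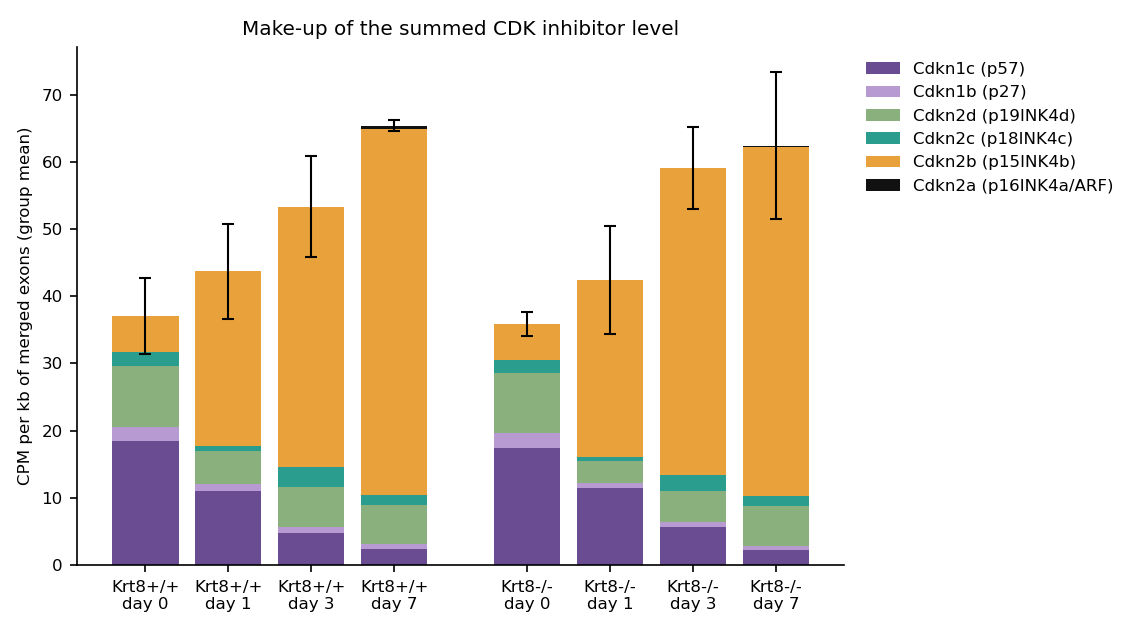
Stacked group means of the 6 CDK inhibitors in CPM per kb of merged exons for each genotype and day, with the SD of the summed level as error bars (n = 3). The purple part, Cdkn1c, is 18.5 of 37.1 CPM per kb in Krt8+/+ AECs on day 0 and 2.36 of 65.4 CPM per kb on day 7, and the orange part, Cdkn2b, fills most of the bar from day 1 on.

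The 6 AEC2 markers summed to 14803 and 13951 CPM in replicate 2 on day 1 (Krt8+/+ and Krt8-/-), and to between 61881 and 86034 CPM in replicates 1 and 3. Replicate 2 also had the lowest day 1 level of Cdkn1c (16.1 and 11.2 CPM) and of Cdkn2d (4.93 and 1.82 CPM) in both genotypes, but not of Cdkn1b (5.18 and 3.83 CPM, the middle and the highest value), and it held the lowest Cdkn2c value in Krt8+/+ and the highest in Krt8-/- AECs (1.09 and 2.14 CPM). Markers of other cells were also found. On days 0, 1, 3, and 7, the 6 fibroblast markers summed to 267 to 865, 85.6 to 228, 397 to 1145, and 491 to 1702 CPM, with counts for all 6 markers in every group. The 7 macrophage markers summed to 7.49 to 38.7 CPM on day 0 and 6.06 to 123 CPM on day 7, also with counts for all. The 4 ciliated and club cell markers fell from 4489 to 17351 CPM on day 0 to 16.6 to 35.9 CPM on day 7, when Scgb3a2 was at 0. The 5 endothelial markers reached at most 29.9 CPM in any library and were at most 3.89 CPM on day 7, when Cldn5 was at 0, the 4 lymphocyte markers at most 17.9 CPM, and the 3 neutrophil markers at most 2.86 CPM. The summed level of 5 AEC1 markers was 2368 to 3524 CPM on day 0, 601 to 1118 CPM on day 1, 930 to 1868 CPM on day 3, and 1254 to 2203 CPM on day 7. In such a sum the most abundant genes weigh most. The study used another measure, a composite AEC1 marker score as fold change from day 0, and reported a gradual rise by day 7. The Krt8-/- library of replicate 3 on day 7 had the fibroblast sum of 1702 CPM, against 491 to 1046 CPM in the other libraries of that day. Of the day 7 libraries it also had the lowest Cdkn2b (51.9 CPM) and Cdkn2a (0.0638 CPM) and the highest Cdkn2c (6.51 CPM) and Rb1 (35.3 CPM). The part of these cells and markers in the changes of the members was not tested.

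Between genotypes, 0 of the 6 tested members were called on any day or over the mean of days 1, 3, and 7, by edgeR or by DESeq2. Among all genes tested, edgeR called 0.0277% on day 0, 0.0166% on day 1, 0.0166% on day 3, 0.0166% on day 7, and 0.0443% over the mean of days 1, 3, and 7. The interaction of genotype and day was called for 0 members and 0.00554% of all genes, and the smallest unadjusted p of a member was 0.335. Over days 1, 3, and 7, Krt8-/- minus Krt8+/+ AECs differed in log2 by 0.06 for Cdkn2b (95% interval -0.19 to 0.31), by 0.06 for Cdkn1c (-0.44 to 0.57), by -0.23 for Cdkn2c (-0.71 to 0.26), by -0.28 for Cdkn2d (-0.82 to 0.25), by -0.03 for Rb1 (-0.21 to 0.14), and by -0.43 for Cdkn1b (-0.79 to -0.06). The intervals of Cdkn2b and Rb1 reached at most 0.31 in size, and those of Cdkn2c, Cdkn2d, and Cdkn1c were wider. Of 30 tests over the single days and this mean, 2 had an unadjusted p under 0.05, and both were of Cdkn1b. These 2 are not separate, since the mean includes day 1. Among all 18046 genes, 638 on day 1 and 660 for the mean had an unadjusted edgeR p under 0.05. For the mean over culture the difference was -0.43 ± 0.17 (edgeR adjusted p = 0.999972), lower in Krt8-/- AECs. For day 1 it was -0.67 ± 0.30 (edgeR adjusted p = 1). On day 1 the Krt8-/- values of Cdkn1b, 2.41 to 3.83 CPM, lay just below the Krt8+/+ values, 3.97 to 6.52 CPM, and without replicate 3 the day 1 difference was -0.30. The groups were also separate on day 7, at 2.40 to 2.74 and 2.82 to 4.15 CPM, while on day 3 Krt8-/- was lower in replicates 1 and 2 (0.690 and 0.633 of the Krt8+/+ level) and higher in replicate 3 (1.47). The day 0 sums of ciliated and club cell markers did not overlap, with 12200 to 17351 CPM for Krt8-/- libraries against 4489 to 10084 CPM for Krt8+/+ libraries, and their part in the day 0 values was not tested.

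**Figure D4:**
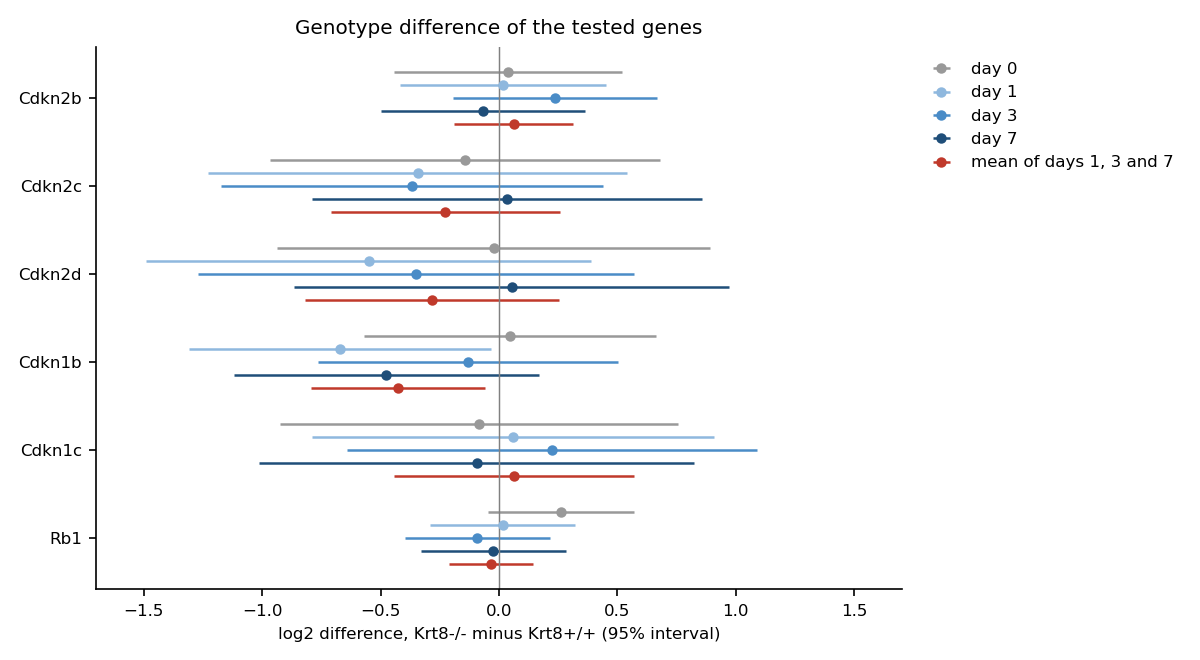
Log2 difference of Krt8-/- minus Krt8+/+ AECs for the 6 tested members on each day and over the mean of days 1, 3, and 7 (red), with 95% intervals from edgeR. Single-day differences lie between -0.67 and 0.26, and 0 of them passed the adjusted threshold.

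A list of 53 other cell-cycle genes was counted by role, and 52 were tested (Foxo4 was too low). Besides genes of G1/S control it holds mitotic cyclins, proliferation genes, and regulators of the inhibitor genes. From day 0 to day 1, 23 rose and 9 fell in Krt8+/+ AECs, where 26.2% and 28.5% of all genes did, and 19 rose and 10 fell in Krt8-/- AECs, where 23.7% and 26.9% did. The median log2 change of the list was 0.44 and 0.31, against 0 and -0.01 over all genes. From day 1 to day 3, 27 rose and 6 fell in Krt8+/+ AECs (median 0.78, all genes -0.05, with 14.4% higher and 11.9% lower) and 28 rose and 6 fell in Krt8-/- AECs (median 0.76, all genes -0.03, with 13.4% higher and 10.2% lower). From day 3 to day 7, 5 rose and 3 fell in Krt8+/+ AECs (3.11% and 3.47% of all genes) and 5 rose and 4 fell in Krt8-/- AECs (4.4% and 6.15% of all genes), with medians of -0.08 and -0.13. Without replicate 1, 2, or 3 these 8 and 9 calls were 3, 1, and 3 and 2, 3, and 1. Calls among all genes for the same step fell from 1188 to 534, 325, and 572 in Krt8+/+ AECs and from 1903 to 834, 969, and 937 in Krt8-/- AECs. The 34 calls of day 3 against day 1 in Krt8-/- AECs were 21 without replicate 1, where those among all genes fell from 4252 to 1842. Over all 7 days 36 rose and 7 fell in Krt8+/+ AECs (median 1.94, against 28.6% and 30.2% of all genes) and 33 rose and 7 fell in Krt8-/- AECs (median 1.39, against 28.6% and 29.9%), with medians of 0 over all genes. Between genotypes 0 of the 52 were called on any day by edgeR or DESeq2, while the number with an unadjusted edgeR p under 0.05 was 10 for day 0, 1 for day 1, and 0 for each later day, against 479, 638, 452, and 255 of the 18046 genes on these 4 days. Of the 10 on day 0, 6 were among the 11 E2F target and proliferation genes, whose median difference was 0.68, higher in Krt8-/- AECs.

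The kinases that the INK4 proteins bind were counted with their D-type cyclins. Of the 5 D-type cyclins and CDK4/6 genes, 1 rose and 2 fell on day 1 (26.2% and 28.5% of all genes) and 3 rose on day 3 (14.4% of all genes) in Krt8+/+ AECs. Ccnd3, a D-type cyclin, fell by 1.57 ± 0.13 on the log2 scale on day 1 (edgeR adjusted p = 8.23e-09) and rose by 1.02 ± 0.13 by day 3 (edgeR adjusted p = 1.23e-05). Cdk6 was 2.91 ± 0.43 higher on day 7 than on day 0 in Krt8+/+ AECs (7.52-fold, edgeR adjusted p = 6.78e-06) and 3.39 ± 0.44 higher in Krt8-/- AECs (10.5-fold, edgeR adjusted p = 1.33e-06). Ccne1, the cyclin E partner of CDK2, was 6.20 ± 0.53 and 4.54 ± 0.45 higher on day 7, the largest change of its group in either genotype (edgeR adjusted p = 4.82e-09 and 4.12e-08).

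Genes downstream of RB were called higher in number between day 1 and day 3, when Cdkn2c also rose. Of 11 E2F target and proliferation genes, 10 rose in this step in each genotype, and all 3 mitotic cyclin and CDK1 genes did so. Among all genes tested, 14.4% rose in Krt8+/+ AECs and 13.4% in Krt8-/- AECs. Ccnb1, cyclin B1, rose by 5.49 ± 0.46 in Krt8+/+ AECs (45.0-fold, edgeR adjusted p = 2.3e-07) and by 5.08 ± 0.45 in Krt8-/- AECs (33.9-fold, edgeR adjusted p = 4.42e-07). Top2a, topoisomerase IIα, rose by 5.07 ± 0.39 in Krt8+/+ AECs (edgeR adjusted p = 6.34e-08), and Rrm2, a subunit of ribonucleotide reductase, by 3.87 ± 0.37 in Krt8-/- AECs (edgeR adjusted p = 7.75e-07). Cdkn2b rose over the same days. In the step before, from day 0 to day 1, Cdkn2c fell in both genotypes. In that step 6 of the 11 E2F target and proliferation genes rose and 0 fell in Krt8+/+ AECs (26.2% and 28.5% of all genes). For Krt8-/- AECs, 3 rose and 1 fell (23.7% and 26.9% of all genes). Of the RB relatives, Rbl2 (p130), linked to quiescence, was 2.47 ± 0.29 lower in log2 on day 7 than on day 0 in Krt8+/+ AECs (0.181-fold, edgeR adjusted p = 3.32e-07), while Rbl1 (p107), an E2F target, was called higher from day 1 to day 3 in both genotypes and lower from day 3 to day 7 (-0.87 in Krt8+/+, edgeR adjusted p = 0.00507, and -0.78 in Krt8-/- AECs, edgeR adjusted p = 0.0081).

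Known regulators of the inhibitor genes were listed as well. Cks1b, which works with SKP2 in the turnover of p27, was 3.51 ± 0.32 higher on day 7 in Krt8+/+ AECs (11.4-fold, edgeR adjusted p = 1.07e-08). Both genes of this role rose between day 1 and day 3 in each genotype, where 14.4% (Krt8+/+) and 13.4% (Krt8-/-) of all genes did. Foxo3, a FOXO factor that activates Cdkn1b in other settings, fell by 1.60 ± 0.31 over 7 days in Krt8+/+ AECs (edgeR adjusted p = 0.00016). Among 6 regulators of the Cdkn2a and Cdkn2b locus, 3 rose and 3 fell over 7 days in each genotype. Of all genes, 28.6% rose and 30.2% fell in Krt8+/+ AECs, and 28.6% rose and 29.9% fell in Krt8-/- AECs. All 6 regulators are given, a choice made after their values were seen. In Krt8+/+ AECs the Polycomb proteins Cbx7 and Bmi1, which repress the locus, were lower in log2 on day 7 than on day 0 (-3.55 ± 0.43, edgeR adjusted p = 5.71e-07, and -1.14 ± 0.14, edgeR adjusted p = 4.54e-07), while the Polycomb enzyme Ezh2 was higher (2.85 ± 0.18, edgeR adjusted p = 9.57e-11). Of the ETS factors, activators of p16, Ets1 was higher (3.04 ± 0.22, edgeR adjusted p = 4.1e-10) and Ets2 lower (-1.79 ± 0.19, edgeR adjusted p = 8.27e-08), and Id1, which opposes them, was higher (2.72 ± 0.32, edgeR adjusted p = 4.62e-07). Repressors and activators thus moved in both directions. Myc, which with MIZ1 represses Cdkn2b, was 4.77 ± 0.20 higher on day 1 (edgeR adjusted p = 9.75e-13) and 3.92 ± 0.20 higher on day 7 (edgeR adjusted p = 5.03e-12) than on day 0 in the same cells, over the days on which Cdkn2b was also higher. The part of any of these regulators in the changes of the members was not tested. The 3 genes listed for the ARF, MDM2, and p53 branch were Mdm2, Trp53, and Cdkn1a, without ARF itself, which is read from Cdkn2a. All 3 were called higher on day 1 in each genotype, where 26.2% (Krt8+/+) and 23.7% (Krt8-/-) of all genes were. Among them Cdkn1a (p21) was 51.5 ± 9.70 CPM in fresh Krt8+/+ cells (SD, n = 3) and 1432 ± 437, 457 ± 28.8, and 709 ± 37.1 CPM after 1, 3, and 7 days. Its highest day was day 1, whereas Cdkn2b, Cdkn1c, and Cdkn2a had their highest or lowest level on day 7.

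**Figure D5:**
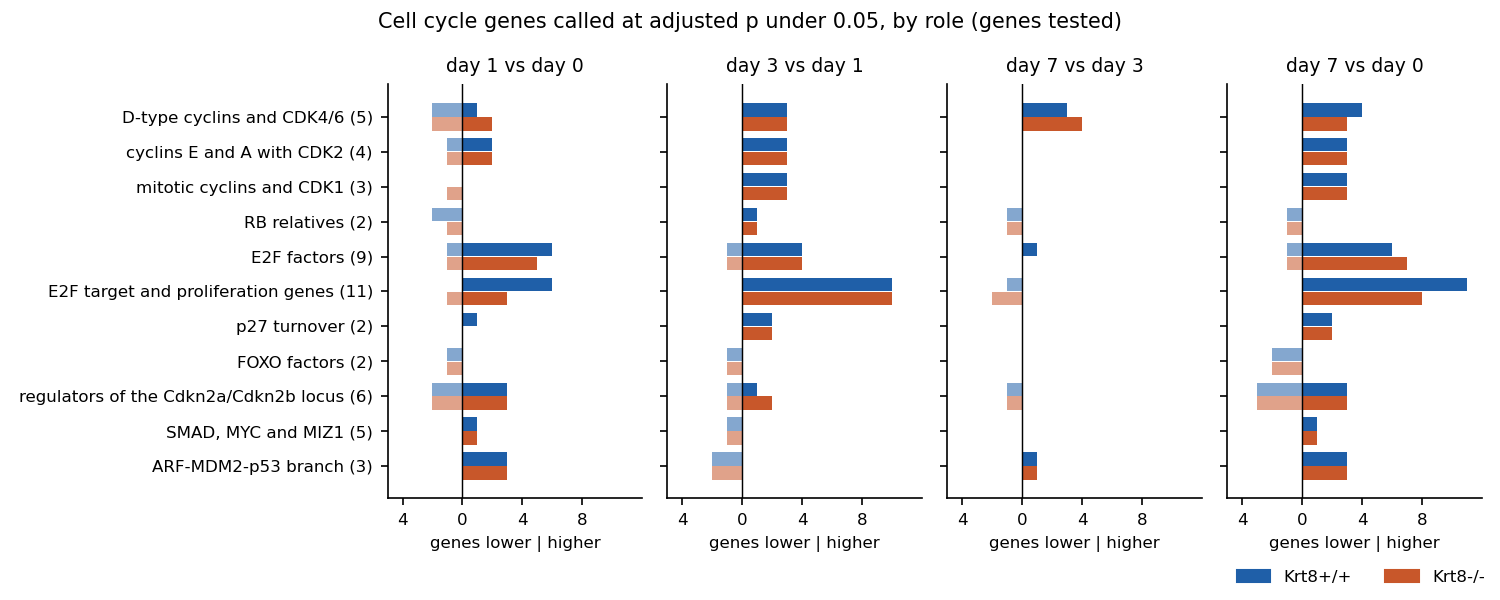
Number of listed cell-cycle genes called higher (right, dark) or lower (left, light) in each pair of days, by role, with the number tested in parentheses and blue for Krt8+/+ and orange for Krt8-/-. E2F target and proliferation genes stand out from day 1 to day 3, when 10 of 11 rose in each genotype (14.4% and 13.4% of all genes).

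The genes whose log2 CPM followed each member most closely over the 24 libraries were found among 15292 genes with a mean of at least 1 CPM. These correlations are descriptions, since the libraries share replicate numbers and days and most of the spread lies between days. For Cdkn2b they were Krt7, a keratin (Pearson r = 0.990), Fgd3 (0.982), and Cfl1, the actin-severing factor cofilin (0.980). For Cdkn1c they were Iqca (0.949), Stk33 (0.944), and Trim39 (0.942), and for Cdkn1b they were Fbxo8 (0.921), Chd6 (0.919), and Zmat4 (0.916). Cdkn2c was closest to Spc24, a kinetochore subunit (0.902), Chaf1b, a chromatin assembly factor of S phase (0.897), and Cdk2 (0.895). Cdkn2d and Rb1 had no such close match, with highest values of 0.814 (Arid4a) and 0.750 (Iffo1).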

How the data were processed

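The members and gene lists were chosen with earlier results of these data known. RNA was sequenced in 24 libraries of AEC2-derived cells, and the authors deposited whole-number read counts per gene. The submitters' processing notes name cutadapt 2.3, STAR 2.7.8a, RSEM 1.3.3, and the GRCm38 build. Whether RSEM estimates were rounded, and whether reads were assigned by strand, was not given in the sources used here. The 5 reporter entries held 0 counts and were left out with no effect on library sizes, and 267 of 55421 gene entries had no symbol. Total counts per library were 10184439 to 19483386. No pair of libraries of a group agreed within sampling noise (chi-square per gene 9.44 to 109 over 24 pairs).

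All 24 libraries were fitted together with a mean for each group in edgeR 4.0.16 (R 4.3.3), with TMM factors, filterByExpr (min.count 10, min.total.count 15), and the quasi-likelihood test on the deposited counts. Intervals are 95%, from the standard error and the t quantile at 16 residual degrees of freedom (scipy 1.17.1). Cdkn2a, below the filter, was tested by exact permutation (numpy 2.4.6), and floors of 3 counts cover counting error only. An exact test of 3 against 3 libraries cannot go below 0.1. The labels number biological replicates without naming their animals, so p-values of the fits measure the spread between these replicates. The exact tests of Cdkn2a take libraries or pairs of the same replicate number as separate, although these share a batch and date. Replicate numbers pair the samples, because the labels give libraries with the same number the same batch and date (correlation of deviations -0.0345 to 0.548), and a fit with replicate number as a block was an alternative. The others were DESeq2 1.42.0 and its size factors, no filter, only the 6 libraries compared, and leaving out each replicate. Named genes were all members, Cdkn1a, the gene with the largest called change of each listed role, all 6 regulators of the Cdkn2a and Cdkn2b locus (added after their values were seen), and the 3 genes closest to each member in Pearson correlation (log2 CPM, prior count 2). The scripts were tested on simulated data. Gene positions are from GENCODE M21.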

Additional observations from a re-analysis of the deposited data

How the results depend on the processing

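Of 19 called changes over time of members, recomputed under 152 alternative values, 130 kept their direction and call, 22 kept their direction and missed the threshold, and 0 changed direction, and the calls of day 7 against day 0 held under every alternative run. With replicate number as a replicate block, members called in Krt8+/+ AECs for day 1 against day 0 numbered 4 in place of 3 (Cdkn2d, -0.94), and no other call of a member changed. Without 1 replicate, members called numbered 1 to 2 in Krt8+/+ AECs for day 3 against day 1, 2 to 4 in Krt8-/- AECs for day 1 against day 0, 0 to 1 there for day 3 against day 1, and 0 to 1 there for day 7 against day 3. Listed cell-cycle genes called numbered 1 to 3 for day 7 against day 3 in each genotype and 21 to 26 for day 3 against day 1 in Krt8-/- AECs. With only the 6 libraries compared, 1 member was called in Krt8+/+ AECs and 0 in Krt8-/- AECs for day 7 against day 3. Fewer libraries entered each of these fits. Without 1 replicate, calls over all genes fell in these comparisons as well, as from 4252 to 1842 without replicate 1 for day 3 against day 1 in Krt8-/- AECs. With only the 6 libraries, calls over all genes for day 7 against day 3 were 1219 in Krt8+/+ and 1827 in Krt8-/- AECs, against 1188 and 1903. The members' count of 0 between genotypes held under every alternative run.

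Of 29 uncalled changes over time (232 alternative values), 5 values passed the threshold and 17 changed sign, and of 30 genotype differences (234 values), 29 changed sign and 0 were called. Rb1 in Krt8-/- AECs was 0.016 with DESeq2's size factors, 0.016 in the DESeq2 test, and 0.0428 with only the 6 libraries for day 1 against day 0, and 0.00316 with no filter for day 7 against day 0. Between genotypes on day 1, Cdkn2b was -0.00715, -0.0070, and -0.0098, and Rb1 -0.00442, -0.00485, and -0.00095, under size factors, the DESeq2 test, and only the 6 libraries. The following log2 ranges were found without 1 replicate, where a sign changed. In Krt8+/+ AECs for day 3 against day 1, ranges were Cdkn2d -0.18 to 0.96 and Rb1 -0.22 to 0.0177. For the Krt8+/+ cells, day 7 against day 3, ranges were Cdkn1b -0.32 to 0.18 and Cdkn2d -0.48 to 0.23. For day 1 against day 0 in Krt8-/- AECs, the range was Rb1 -0.0492 to 0.0525. For the Krt8-/- cells, day 3 against day 1, ranges were Cdkn1b -0.51 to 0.42 and Cdkn2d -0.13 to 1.19. In Krt8-/- AECs for day 7 against day 3, ranges were Cdkn2b -0.0515 to 0.45 and Cdkn2d -0.0322 to 0.74. For the Krt8-/- cells, day 7 against day 0, ranges were Cdkn2c -0.84 to 0.0576 and Rb1 -0.23 to 0.13. For genotype, ranges on day 0 were Cdkn1b -0.0524 to 0.18, Cdkn1c -0.20 to 0.12, Cdkn2b -0.0919 to 0.25, and Cdkn2d -0.11 to 0.0454. Those on day 1 were Cdkn1c -0.27 to 0.21, Cdkn2b -0.14 to 0.13, Cdkn2c -0.92 to 0.27, and Rb1 -0.0444 to 0.0588. Those on day 3 were Cdkn1b -0.60 to 0.11 and Cdkn1c -0.15 to 0.72. Those on day 7 were Cdkn1c -0.39 to 0.21, Cdkn2b -0.21 to 0.0789, Cdkn2c -0.31 to 0.19, Cdkn2d -0.0713 to 0.22, and Rb1 -0.0982 to 0.0235. Those over the mean of days 1, 3 and 7 were Cdkn1c -0.14 to 0.38, Cdkn2b -0.0611 to 0.15, and Cdkn2c -0.44 to 0.0787. The cause of these changes was not tested. At 10184439 or more counts per library, Cdkn1b and Cdkn2c rested on 12 to 156 counts in a library, which limits the precision of their changes.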
